A study of Mus musculus with 12 samples.

Results

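Messenger RNA of 7 pump genes was examined in the interscapular brown fat of mice kept in the cold and of ctrl mice. They encode the sodium pump beta subunits Atp1b1, Atp1b2 and Atp1b3, the gastric proton pump subunits Atp4a and Atp4b, and the FXYD proteins Fxyd1 and Fxyd5. They are 7 of the 54356 genes to which the sequenced transcripts were matched, and 6 of the 7 had enough reads to be among the 13876 genes tested. The genes were chosen by family and with the difference between cold and ctrl already known, so their own differences are a description and no p is given for them. Where such a gene is said to be called, this is its place in the fit over all genes and not evidence for it. The animals were 12 male wild type C57BL/6N mice aged 20 weeks, 6 labelled ctrl and 6 labelled cold, and each is called here by its group and mouse number. The colony was held at 22 to 24 °C. The labels describe 24 h of single housing at 4 °C for every animal, which was read as meant for the cold group. How the ctrl mice were housed in that last day is not stated, so cold and single housing cannot be told apart. The extraction text names another fat depot than the tissue label, and the series text gives n = 3 where the labels give 6 cold animals.

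The sodium pump exchanges sodium for potassium across the plasma membrane at the expense of ATP. Its alpha subunit carries out the transport. Its beta subunit is a glycoprotein that brings the alpha subunit to the cell surface and tunes its affinity for potassium. FXYD proteins are small membrane proteins that bind the assembled pump and adjust its kinetics. The gastric proton pump is built in the same way, from the catalytic subunit Atp4a and the beta subunit Atp4b, and acidifies the stomach. In brown adipocytes noradrenaline is known to stimulate the sodium pump.

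The FXYD family is named after a short motif of phenylalanine, any residue, tyrosine and aspartate, and the coding stretch around it identifies the Fxyd1 and Fxyd5 transcripts that were counted. Each line gives 60 nt of the coding sequence of the most abundant transcript, taken from the GENCODE M21 transcripts, with the 4 codons of the motif in capitals.
Fxyd1: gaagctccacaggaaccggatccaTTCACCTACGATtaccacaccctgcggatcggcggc
Fxyd5: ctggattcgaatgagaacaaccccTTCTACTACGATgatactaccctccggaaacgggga
The motif begins at codon 29 of 92 in Fxyd1 and at codon 135 of 178 in Fxyd5. Counted from the first capital, with the base of Fxyd1 first, the 12 capitals differ by the substitutions A4T and C5A, both in the codon of the variable residue. The coding stretch ahead of the shared motif is thus longer in Fxyd5 than in Fxyd1. The motif was what was searched for, so its likeness between the 2 genes was fixed in advance. Over the whole coding sequences, Fxyd1 and Fxyd5 were 71.4% identical over 269 aligned nucleotides, in an alignment of 541 columns. Atp1b1 was 64.0% identical to Atp1b2 over 816 aligned nucleotides, 60.8% identical to Atp1b3 over 789 and 60.4% identical to Atp4b over 829. Positions opposite a gap are left out of these percentages, and no unrelated genes were aligned for comparison. The FXYD value is therefore not set against those of the beta subunits. No stretch of 50 nt, the read length, was common to the transcripts of any 2 of these genes.

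The promoter of Atp1b1 is shown because this gene differed most between the groups among the sodium pump beta subunits. The line gives the 250 bases ahead of the RefSeq start in the direction of transcription, on the minus strand of GRCm38.p6 at chr1:164458356-164458605. Capitals mark 2 GC boxes (GGGCGG) and 1 CCAAT box (CCAAT), all read on the opposite strand. A further CCAAT match, on the given strand, begins 1 base after the start base, just past the bases printed.
Atp1b1 promoter: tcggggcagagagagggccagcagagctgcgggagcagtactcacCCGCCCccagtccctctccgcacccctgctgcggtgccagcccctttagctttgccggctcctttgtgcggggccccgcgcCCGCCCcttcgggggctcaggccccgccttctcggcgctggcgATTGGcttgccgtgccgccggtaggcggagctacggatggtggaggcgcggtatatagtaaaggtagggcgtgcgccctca
Of these bases 70.4% were G or C. Both strands of the window from 250 bases before to 50 after the start were searched, and the windows of 32851 RefSeq promoters were searched in the same way. The GC box was present in 35.7% of all promoters and the CCAAT box in 37.4%. The cyclic AMP response element TGACGTCA, present in 1.79% of promoters, was not among the letters of the Atp1b1 window. Neither were its shorter form TGACG (20.8%), the estrogen-related receptor element TCAAGGTCA (0.423%), the E-box CACGTG (7.15%) or the TATA box TATAAA (13.6%). Only these exact letters were searched, so other spellings, such as the TATATA near the end of the printed line, were not counted. RefSeq promoters were matched for 5 of the 7 genes, and those of Atp1b2 and Atp4b were not used here.

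The libraries held about 15985000 to 31424000 reads each. Values are CPM, the reads of a gene scaled to a common library size, as mean ± SD over 6 animals. A level, where genes are compared with each other, is CPM per 1000 nt of effective transcript length. Of the 13876 genes tested, 31.6% were called at an adjusted p under 0.05 (edgeR quasi-likelihood test, Benjamini-Hochberg), 16.2% higher and 15.4% lower in cold. In 16.3% of the genes tested the 2 groups did not overlap. Markers of brown adipocytes summed to 19789 to 27822 CPM in ctrl and 24289 to 33718 CPM in cold. Of these 7 markers, 2 were called higher (Cidea and Fabp4), 1 lower (Adipoq) and 4 were not called. Skeletal muscle markers summed to 168 to 1471 CPM in ctrl and 184 to 4314 CPM in cold, highest in cold 15, and 0 of 10 were called by the edgeR quasi-likelihood test. Smooth muscle and pericyte markers were the list whose sums separated the groups, at 574 to 652 CPM in ctrl and 426 to 539 CPM in cold, with 1 marker higher and 2 lower of 7. Their part in the values below was not tested.

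Of the 6 genes past the filter, 3 were called higher in cold (Atp1b1, Atp1b3 and Fxyd5), 1 lower (Atp4b), and 2 were not called (Atp1b2 and Fxyd1). The share called over all genes was 31.6%, and because the genes were chosen on this contrast nothing is read from the comparison. Values of ctrl and cold did not overlap for Atp1b1 and Atp1b3, higher in cold (8.92% of all genes tested), and for Atp4b, lower in cold (7.37%). The median log2 fold change of the 6 was 0.19, and that of all genes tested was -0.01.

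**Figure D1:**
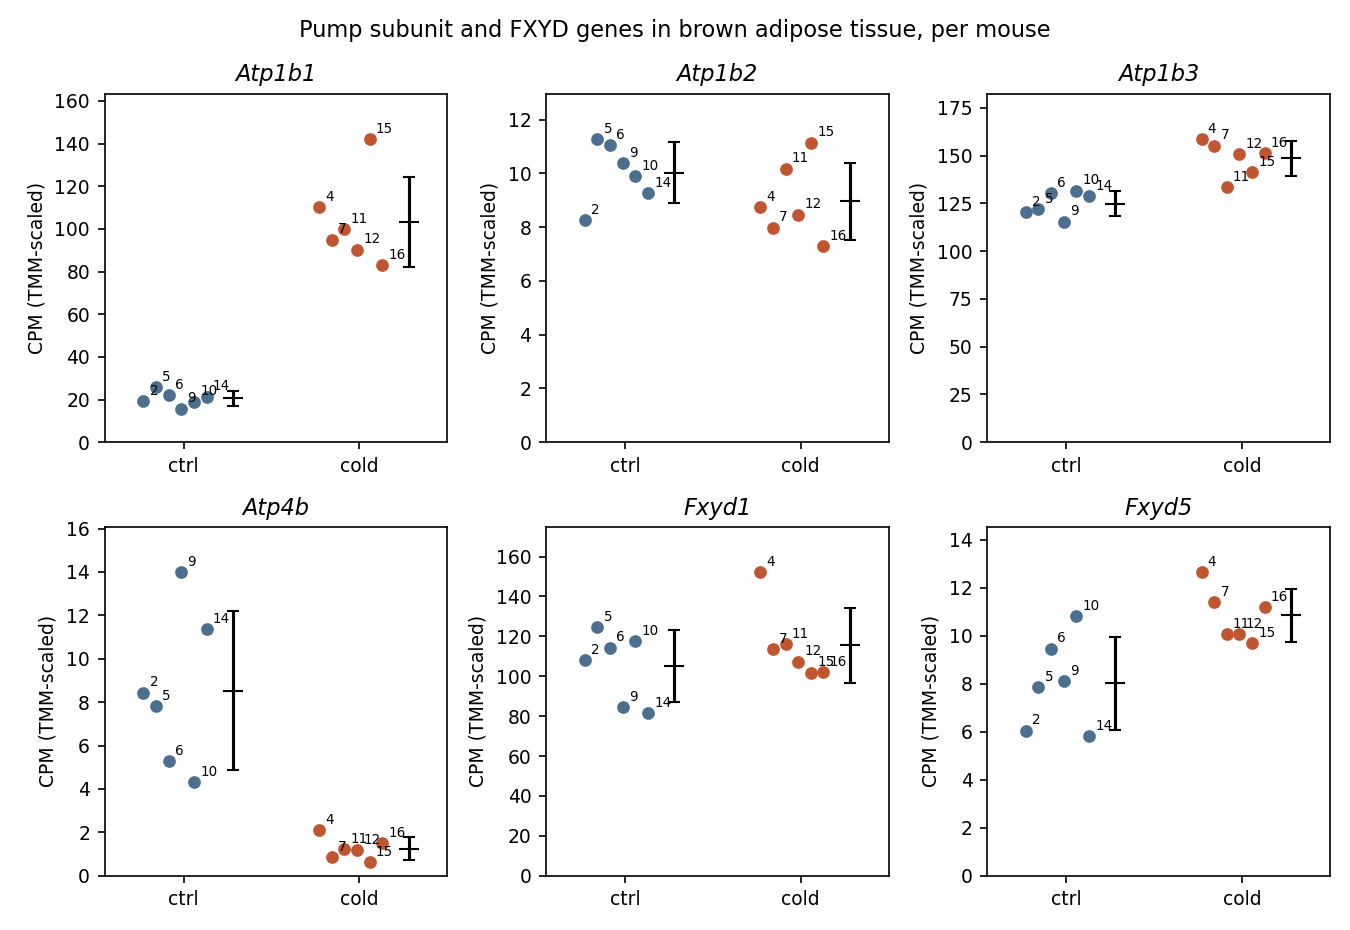
CPM of each of the 6 genes with reads in every animal, ctrl and cold, with points labelled by mouse number and bars for mean and SD over 6 animals. The cold points of Atp1b1 sit between 82.8 and 142 CPM, all above the ctrl points. Those of Atp4b sit at or below 2.10 CPM, all under the ctrl points. The points of Atp1b2, Fxyd1 and Fxyd5 overlap between the groups.

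Among the beta subunits Atp1b1 differed most. Atp1b1 (ENSMUSG00000026576.12, chr1:164437109-164458355, minus strand) encodes the beta subunit found in most tissues. The 6 ctrl animals, in the order of mouse number 2, 5, 6, 9, 10 and 14, had 19.4, 25.6, 22.2, 15.7, 19.0 and 21.3 CPM of Atp1b1. The 6 cold animals, numbers 4, 7, 11, 12, 15 and 16, had 110, 94.9, 99.9, 90.3, 142 and 82.8 CPM. The lowest cold animal thus had more than 3 times the CPM of the highest ctrl animal, and cold 15 was the highest of all. The mean was 20.5 ± 3.36 CPM in ctrl and 103 ± 21.1 CPM in cold (SD, n = 6), a log2 fold change of 2.33 ± 0.14 (SE) or 5.03-fold. This placed Atp1b1 at rank 74 from the highest fold change among 13876 genes. Cold 15 also had the highest sum of muscle markers, and without that animal the log2 fold change of Atp1b1 was 2.22, and with a muscle marker score as a covariate 2.28. In bulk tissue, a change in the number of cells that express a gene and a change in its RNA per cell cannot be told apart.

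Nearly all Atp1b1 reads came from a single transcript. Atp1b1-201, with 6 exons and a coding sequence of 912 nt, held 99.7% of its reads over all libraries. The 3' end of the gene overlaps Nme7 on the opposite strand by 617 nt. Of the 3028 distinct 50 nt stretches of Atp1b1, 478 occur in Nme7 when read on the opposite strand and 0 on the same strand. Nme7 itself had 3.39 ± 0.93 CPM in ctrl and 3.50 ± 0.62 CPM in cold, with a log2 fold change of 0.05 ± 0.18 (edgeR adjusted p = 0.862).

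Atp1b3 (ENSMUSG00000032412.8, chr9:96332655-96364442, minus strand), a second widely expressed beta subunit, had the most reads of the family and varied least between animals. Its ctrl values ran from 115 through a median of 125 to 132 CPM, and its cold values from 133 through 151 to 159 CPM. Every cold animal was above every ctrl animal, but the lowest cold animal, cold 11 at 133.5 CPM, stood close to the highest ctrl animal, ctrl 10 at 131.6 CPM. The log2 fold change was 0.25 ± 0.07, or 1.19-fold. The coefficient of variation was 5.23% in ctrl and 6.31% in cold, against 16.4% and 20.4% for Atp1b1. The gene was no longer called when only mouse numbers from 9 upwards (0.20) or only those under 9 (0.34) were used. Atp1b3-201 held 99.9% of the reads. A processed pseudogene on the X chromosome, Gm1848, shares 227 of 2337 stretches of 50 nt with Atp1b3 on the same strand and was assigned 0 reads.

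Atp1b2 (ENSMUSG00000041329.13, chr11:69599736-69605942, minus strand), best known from brain and muscle, had few reads and similar values in both groups. It ran from 8.26 through 10.1 to 11.3 CPM in ctrl and from 7.29 through 8.61 to 11.1 CPM in cold. The groups overlapped, with 2 cold animals below all ctrl animals and none above, and the log2 fold change was -0.16 ± 0.12. With the muscle marker score as a covariate the log2 fold change of Atp1b2 was -0.22 ± 0.11. Without ctrl 2 and cold 15 it was -0.28 ± 0.11, and the gene was not called in either fit. Its main coding transcript, Atp1b2-201, held 87.4% of the reads, and a non-coding transcript another 9.74%.

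Per unit of transcript length, the beta subunits had the same order in both groups, and Atp1b1 stood closer to Atp1b3 in cold. The level of Atp1b3 was 80.7 ± 5.21 in ctrl and 99.5 ± 6.71 in cold. That of Atp1b1 was 10.7 ± 1.39 in ctrl and 51.9 ± 11.3 in cold. That of Atp1b2 was 4.21 ± 0.94 in ctrl and 3.47 ± 0.73 in cold. Neighbours in this order did not overlap within either group: the lowest Atp1b3 level in cold was 88.3 and the highest Atp1b1 level there 73.4. As a share of the summed beta level, Atp1b1 went from 11.2% ± 1.35 in ctrl (10.2% to 13.8%) to 33.3% ± 5.01 in cold (27.6% to 41.9%). Atp1b3 went from 84.4% ± 2.16 to 64.5% ± 5.35, and Atp1b2 from 4.41% ± 0.97 to 2.23% ± 0.37. None of the 3 shares overlapped between ctrl and cold, and Atp1b3 was the main beta subunit message in all 12 animals. These shares rest on the same reads as the values above and add no independent evidence.

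**Figure D2:**
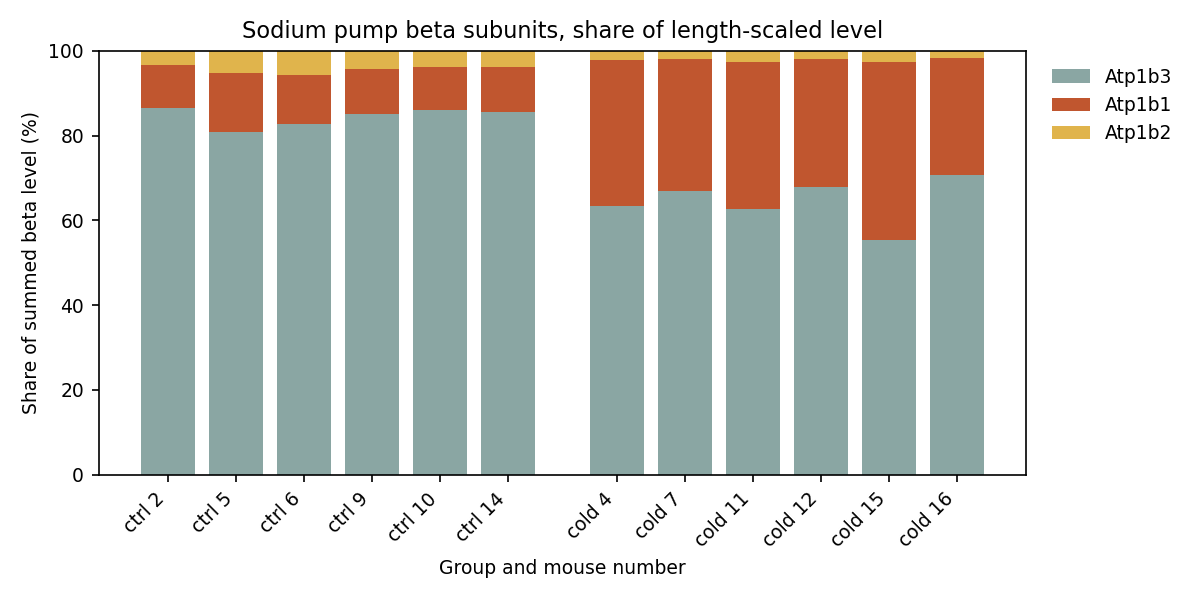
Share of Atp1b1, Atp1b2 and Atp1b3 in the summed beta subunit level of each animal, in percent, as stacked bars from 0 to 100, with ctrl animals on the left and cold animals on the right. The Atp1b1 part is 10.2% to 13.8% in the ctrl animals and 27.6% to 41.9% in the cold animals, with cold 15 highest.

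The summed beta level went from 95.5 ± 5.47 to 155 ± 11.6, as a level of message and not of assembled pumps. Of the 6 chosen genes with reads, Fxyd1 had the highest level in both groups, followed by Atp1b3. In ctrl the next were Fxyd5 (9.76 to 19.2) and Atp1b1 (9.27 to 13.1), which overlapped. Atp4b (3.20 to 10.8) overlapped both of these and also Atp1b2 (3.03 to 5.58), and in ctrl 9 the Atp4b level was above that of Atp1b1. In cold there was no overlap among Atp1b1 (42.1 to 73.4), Fxyd5 (17.5 to 25.2), Atp1b2 (2.74 to 4.79) and Atp4b (0.44 to 1.52).

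**Figure D3:**
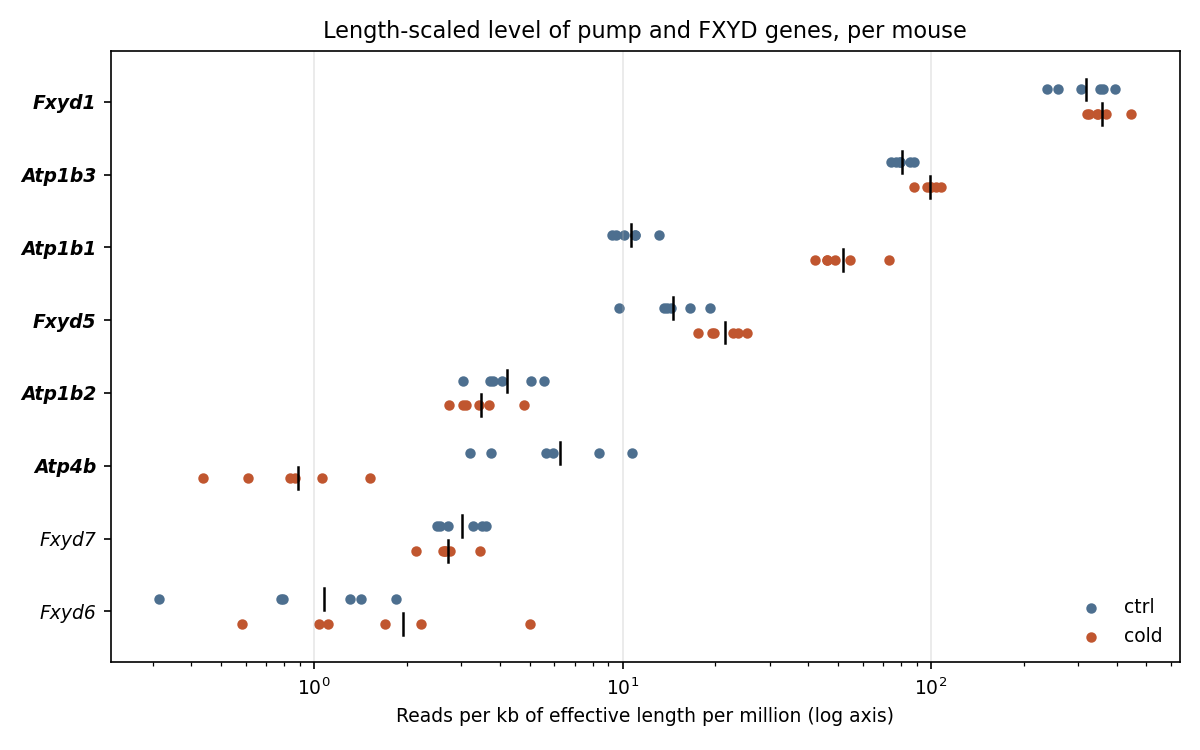
Level of the pump subunit and FXYD genes described, in every animal, as CPM per 1000 nt of effective transcript length on a log axis, ctrl and cold in rows of their own, with a vertical bar for each mean and the 6 chosen genes with reads in bold. Fxyd1 is highest, Atp1b1 lies between Atp1b3 and Atp1b2 in both groups, and Atp4b lies below 2 in all cold animals.

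The proton pump pair showed a beta subunit without its catalytic partner. Atp4b (ENSMUSG00000031449.10, chr8:13386205-13396825, minus strand) had 8.44, 7.81, 5.27, 13.98, 4.32 and 11.36 CPM in ctrl 2, 5, 6, 9, 10 and 14. It had 2.10, 0.85, 1.24, 1.19, 0.61 and 1.52 CPM in cold 4, 7, 11, 12, 15 and 16. All cold animals were below all ctrl animals, and the ctrl animals were spread widely, with a coefficient of variation of 42.8%. The mean was 8.53 ± 3.65 CPM in ctrl against 1.25 ± 0.52 CPM in cold, which is a log2 fold change of -2.74 ± 0.33, or 6.68-fold lower, at rank 12 from the lowest of 13876. These values rest on 86 to 245 reads per ctrl library and 14 to 65 per cold library, so the cold values carry a large counting error. The log2 fold change was -3.13 with only mouse numbers from 9 upwards and -2.22 with only those under 9.

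Atp4a (ENSMUSG00000005553.14, chr7:30712209-30725534, plus strand), the catalytic subunit, had 0 reads in all 12 libraries. A count of 0 allows up to 3 reads, or 0.0252 CPM over the ctrl group and 0.0235 CPM over the cold group, counting error only. Markers of the stomach lining were likewise missing: 6 of 7 had 0 reads in every library, and Muc5ac had 1 read, in cold 15. Atp12a, the catalytic subunit of the colonic proton pump, also had 0 reads. The Atp4b reads came from the ordinary coding transcript, since Atp4b-201, with 7 exons, held 98.8% of them. The uncharacterised gene Gm45410 overlaps Atp4b by 1093 nt on the opposite strand, shares no 50 nt stretch of transcript with it, and averaged 2.11 ± 0.65 CPM in ctrl against 3.08 ± 0.59 CPM in cold (log2 fold change 0.55 ± 0.20, edgeR adjusted p = 0.0489).

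Fxyd1 (ENSMUSG00000036570.14, chr7:31051678-31057199, minus strand), phospholemman, which slows the sodium pump until it is phosphorylated, was the most abundant FXYD message and differed little. It ran from 81.4 through 111 to 125 CPM in ctrl and from 102 through 110 to 152 CPM in cold. The groups overlapped, and only cold 4, at 152 CPM, was above all ctrl animals. The log2 fold change was 0.14 ± 0.12, and 0.04 without cold 4. On the length scale its level was 318 ± 61.4 in ctrl and 359 ± 46.0 in cold. Of its 17 annotated transcripts 15 had reads, and 10 that share a coding length of 276 nt held 90.7% of them.

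Fxyd5 (ENSMUSG00000009687.14, chr7:31032722-31042481, minus strand), dysadherin, which also affects cell adhesion, was much rarer. It ran from 5.81 through 7.97 to 10.8 CPM in ctrl and from 9.71 through 10.6 to 12.6 CPM in cold. All 6 cold animals were above the ctrl median, and 3 of them above the highest ctrl animal. The log2 fold change was 0.43 ± 0.14, or 1.35-fold. It was not called in 8 of 24 alternatives, among them leaving out ctrl 2 (0.37), ctrl 5 (0.43), ctrl 14 (0.36), cold 7 (0.42) or cold 16 (0.43). Markers of leukocytes, which also express Fxyd5, summed to 29.7 to 58.2 CPM in ctrl and 36.8 to 55.3 CPM in cold, with 1 of 7 tested markers called higher (Cd68, edgeR adjusted p = 0.0196) and 6 not called, among them Ptprc at a log2 fold change of -0.36 and Cd79a at -0.54, and their part in Fxyd5 was not tested. Its reads were spread over 13 transcripts, the largest of which, Fxyd5-209, held 20.2%. The level of Fxyd1 was 22.3 ± 3.97 times that of Fxyd5 in ctrl and 16.9 ± 2.53 times in cold, overlapping.

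Fxyd1 and Fxyd5 lie in a tight cluster on chromosome 7, on the same strand, with Fxyd7 between them. Fxyd7 is 31 nt from Fxyd5 and 210 nt from Fxyd1. Its mean was 1.68 ± 0.26 CPM in ctrl against 1.52 ± 0.26 CPM in cold (log2 fold change -0.15 ± 0.19, edgeR adjusted p = 0.603). Fxyd6, on chromosome 9, had 1.75 ± 0.93 and 3.11 ± 2.52 CPM (log2 fold change 0.83 ± 0.52, edgeR adjusted p = 0.259), and its log2 fold change was -0.18 when only mouse numbers under 9 were used. It was 0.29 without cold 15, the animal highest in muscle markers, 0.22 without ctrl 2 and cold 15, and 0.25 with the muscle marker score as a covariate. Fxyd6 and Fxyd7 were the 2 of 7 other pump and FXYD genes listed that passed the filter. By edgeR's quasi-likelihood test 0 of them were called, with unadjusted p of 0.453 for Fxyd7 and 0.136 for Fxyd6, and 0 under every alternative, DESeq2 and limma-voom included. Fxyd2, Fxyd3 and Fxyd4 did not pass the filter. Fxyd2 had 2 to 17 reads per library and Fxyd4 had 0 in all.

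Variation between animals within a group was compared across the family, by the correlation of log2 CPM after subtracting each group mean over 12 animals. These are descriptions, since all genes of a library share its depth and tissue composition. Atp1b1 varied with Atp1b2 (r = 0.65), while its correlation with Atp1b3 was 0.01 and with Atp4b -0.42. Cold 15 was the highest cold animal for both Atp1b1 and Atp1b2, and the r of this pair was not computed without that animal. Other pairs of similar size were Atp1b2 with Fxyd6 (0.59), Atp1b3 with Fxyd6 (-0.59) and Fxyd1 with Fxyd5 (0.55). The search for similar deviations covered 10066 genes, those whose log2 CPM averaged 2 or more. The 3 highest for Atp1b1 were Foxo1 (r = 0.92), Ndel1 (0.88) and Tuba4a (0.87), for Atp1b2 Schip1 (0.91), Mafk (0.88) and Atp5g1 (0.88), and for Atp1b3 Cox18 (0.94), Ezh2 (0.91) and Ctsb (0.88). For Atp4b they were Nudt18 (0.93), Gpi1 (0.92) and Rpe (0.91), for Fxyd1 Samd1 (0.98), Stk11 (0.97) and Timm50 (0.97), and for Fxyd5 Arhgdib (0.88), 1700052K11Rik (0.86) and Rhbdf1 (0.86). Without ctrl 2 and cold 15, 0 of the 3 most similar genes of Atp1b1 and of Atp1b2 were found again, 1 of 3 for Atp1b3, Atp4b and Fxyd5, and 2 of 3 for Fxyd1.

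A list of 47 sodium carriers, channels and pump regulators sets these genes beside the rest of cellular sodium handling. Of its 35 members past the filter, 10 were called higher and 9 lower in cold and 16 were not called by the edgeR quasi-likelihood test, and 11 did not overlap between the groups. Over all genes tested 31.6% were called and 16.3% did not overlap. With library totals as the scale, 13 genes of the list were called higher and 7 lower. The median log2 fold change was 0.19, against -0.01 for all genes tested. Among those called were carriers that bring sodium into cells: Slc12a2, the sodium, potassium and chloride cotransporter, rose from 63.8 ± 17.8 to 209 ± 21.7 CPM (log2 fold change 1.71 ± 0.17, edgeR adjusted p = 4.65e-06). The phosphate carrier Slc20a1 rose from 13.0 ± 1.47 to 22.7 ± 2.85 CPM (0.80 ± 0.10, adjusted p = 1.58e-05). The sodium, potassium and calcium exchanger Slc24a3 fell from 186 ± 18.4 to 108 ± 13.6 CPM (-0.78 ± 0.09, adjusted p = 1.16e-05). Slc12a9, a member of the cation and chloride cotransporter family, fell from 23.6 ± 2.81 to 10.5 ± 1.88 CPM (-1.16 ± 0.11, adjusted p = 1.60e-06).

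Among channels and regulators, Scn4b, an accessory subunit of voltage-gated sodium channels, rose from 4.00 ± 2.57 to 29.3 ± 9.89 CPM (log2 fold change 2.88 ± 0.40, edgeR adjusted p = 2.74e-04). The log2 fold change of Scn4b was 2.72 ± 0.21 with the muscle marker score as a covariate and 2.52 ± 0.33 without ctrl 2 and cold 15. Slc9a3r1, a scaffold that anchors sodium and proton exchangers, rose from a median of 8.54 CPM (6.29 to 9.87) to a median of 33.7 CPM (29.99 to 38.7), with a log2 fold change of 2.03 ± 0.11 (edgeR adjusted p = 3.24e-09). Nedd4l, a ubiquitin ligase that removes sodium channels from the membrane, fell from 71.9 ± 7.10 to 45.3 ± 4.37 CPM (-0.67 ± 0.08, adjusted p = 1.69e-05). Nkain1, which binds sodium pump beta subunits, fell from 1.63 ± 0.53 to 0.43 ± 0.19 CPM (-1.94 ± 0.33, adjusted p = 2.60e-04). The kinases Sgk1 (0.27, adjusted p = 0.228) and Sik1 (0.08, adjusted p = 0.786), both regulators of the pump, did not pass the threshold. Of the other kinases listed, Wnk1 was called higher (0.40, edgeR adjusted p = 0.00705) and Stk39 lower (-0.69, adjusted p = 0.00353). Oxsr1 was not called (0.19, edgeR adjusted p = 0.0593), and Wnk4 did not pass the filter. All these kinases were named after their values were seen.

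**Figure D4:**
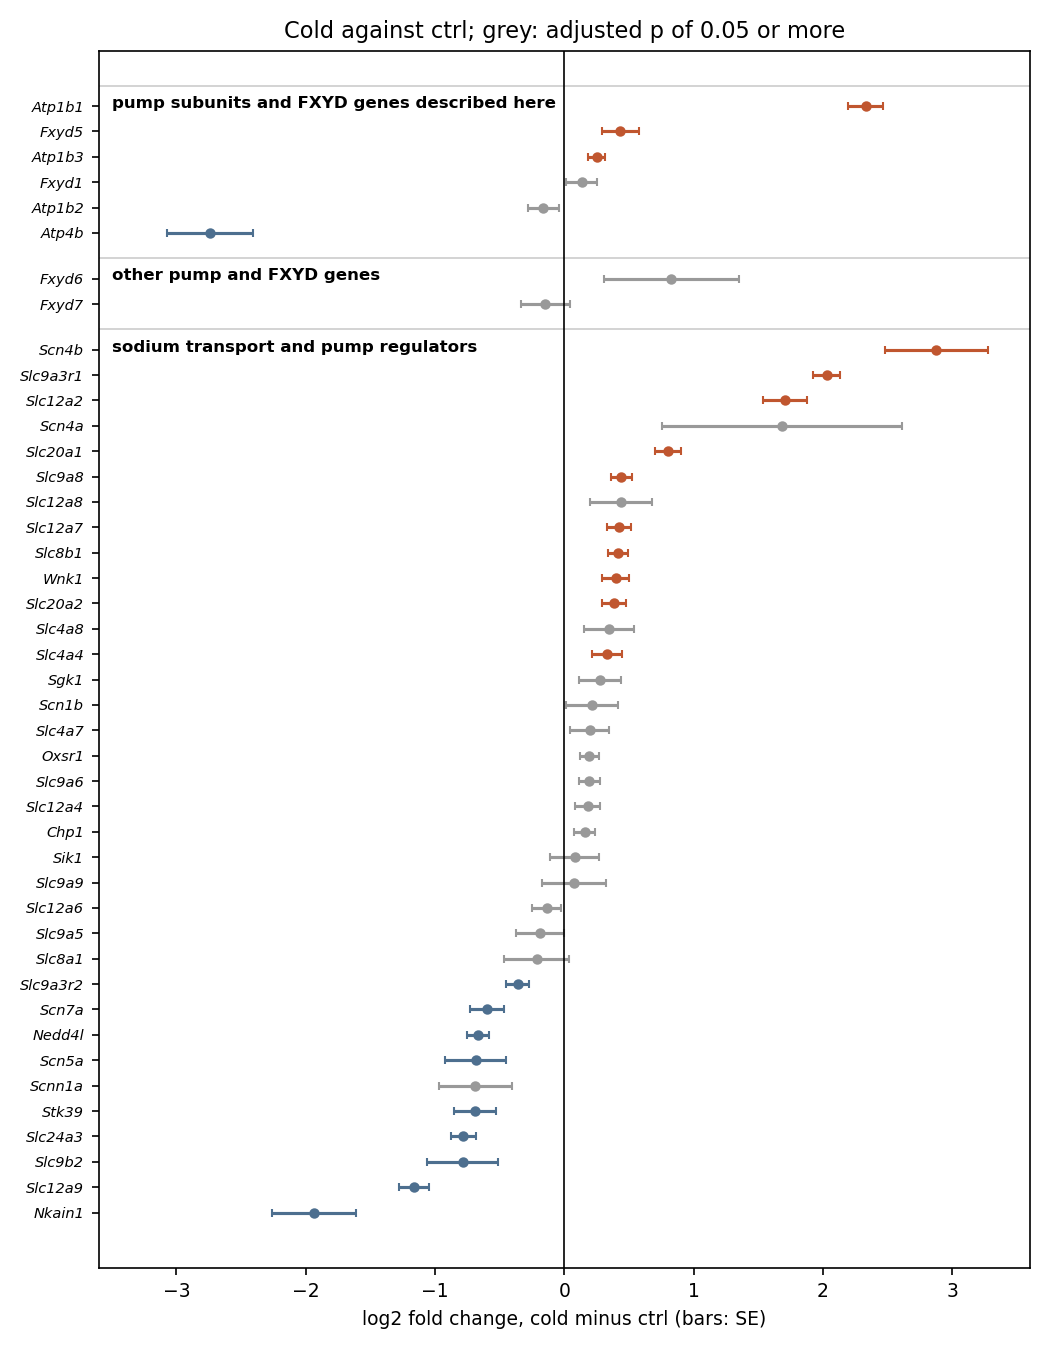
Log2 fold change in cold against ctrl with its SE for the pump subunits and FXYD genes described here, the other pump and FXYD genes, and the sodium transport and regulator genes that passed the filter, with grey for an adjusted p of 0.05 or more. Atp1b1 at 2.33 is exceeded only by Scn4b at 2.88, and Atp4b at -2.74 is the lowest.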

How the data were processed

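The authors' deposited files hold, for 1 animal each, estimated counts and TPM per transcript, per the file headers. Salmon, cutadapt, bcl2fastq and GRCm38 appear in the submitters' processing notes. Their versions, the strand setting and the annotation release are not given in the sources used here. Libraries were poly(A), strand-specific and paired-end with 50 nt reads, per the labels' protocols.

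Of 140658 transcripts 140137 were tied to GENCODE M21 genes by identifier without version, and the 521 others (0.0866% to 0.152% of reads) were left out. Estimated counts were summed per gene and rounded. Genes passing filterByExpr (minimum count 10) were scaled by TMM and tested with edgeR 4.0.16 in R 4.3.3 (robust quasi-likelihood, two-sided, Benjamini-Hochberg, threshold 0.05), which called 2246 genes higher and 2134 lower. With library totals as the scale it called 2895 higher and 1409 lower. The procedure was also run on simulated counts, drawn independently for each gene. Those counts hold no variation in tissue composition, so that run does not vouch for the values above.

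Levels are estimated counts divided by each transcript's effective length, summed per gene and scaled to the common library size. Within a library they give the same shares as the authors' deposited TPM. TPM themselves were not compared between animals: in ctrl 2, transcripts whose effective length was below 50 nt took 55.2% of all TPM, and in the other libraries 2.36% to 8.41%. Named were all 7 genes, the other pump and FXYD genes past the filter, up to 8 of the sodium list with the smallest p among those called, and per gene the 3 of highest r. The kinases of the sodium list were named in addition. The genes and lists were chosen with earlier results of these data known. The labels name no batch. Some genes of the lists are not reported here and are left out of their counts.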

Additional observations from a re-analysis of the deposited data

Results flagged for a closer look

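In 38 groups of 6 animals, the highest and lowest animals were compared with the spread of the rest by Dixon's ratio at its 95% critical value, which chance alone exceeds in about 1 in 20 groups. There were 4 such values, 3 of them in cold 4 and 1 in ctrl 5. Fxyd1 in cold 4 was 152 CPM, with the next cold animal at 116 CPM. Slc12a9 in cold 4 was 14.1 CPM, with the next at 10.5 CPM. Slc12a2 in cold 4 was 166 CPM, lowest of the cold animals, with the next at 206 CPM. Atp1b1 in ctrl 5 made up 13.8% of the summed beta level, with the next ctrl animal at 11.5%. Cold 4 was also the most deeply sequenced library, at about 31424000 reads. Whether depth had a part in these values was not tested.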

How the results depend on the processing

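Over 24 alternatives the log2 fold change of Atp1b1 ran from 2.20 to 2.47, of Atp4b from -3.13 to -2.22, of Atp1b3 from 0.20 to 0.34, of Fxyd5 from 0.30 to 0.63, of Fxyd1 from 0.04 to 0.22 and of Atp1b2 from -0.29 to -0.07. With only mouse numbers from 9, and with only those under 9, 2 of the pump and FXYD genes were called against 4 with all animals. The share called over all genes with only numbers from 9 was 25.6%. With only numbers under 9, 8 genes of the sodium list were called against 19, while the share called over all genes went from 31.6% to 6.57%, and the log2 fold change of Fxyd6 turned to -0.18. These fits hold fewer animals. Leaving out each animal in turn gave 3 to 4 calls among the pump and FXYD genes and 0 among the other pump and FXYD genes. It gave 16 to 21 in the sodium list, while 27.4% to 36.2% of all genes tested were called. With annotated in place of effective length, the share of Atp1b2 in cold was 2.71% against 2.23%. Fxyd6, Fxyd7 and Nkain1 were not tested under the stricter filter. No paired analysis was possible because the mouse numbers differ between the groups. Depth limits Atp4b in cold, Fxyd6, Fxyd7 and Nkain1.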
